A study of Mus musculus with 9 samples.

Results

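The genes described here make, modify, store and burn fatty acids in B16F10 cells, a mouse melanoma line. The set holds 40 genes of the 54752 in the deposited count table, and they were listed by name for their known roles, with earlier results of these data known. It takes in genes of synthesis, elongation and desaturation, the acyl-CoA ligases, glycerolipid assembly, the lipid droplet, mitochondrial oxidation, and uptake and binding. Of the 40, 38 had enough reads to be tested and 2, Cd36 and Lpl, did not.

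RNA-seq was carried out on 3 groups of 3 libraries, all from B16F10 cells grown in DMEM with 10% FBS. The control group, GFPsg, is labelled wild type and is named for a guide RNA to GFP. The other two, Tada2bsg1 and Tada2bsg2, are labelled Tada2b knockout and are named for a first and a second guide RNA to Tada2b (guide 1 and guide 2 below). Tada2b encodes an adaptor of the acetyltransferase module of SAGA, a chromatin co-activator. Whether the cells were clones or pools, the time after editing, and whether the replicates were separate cultures are not given in the sources used here, so the p-values measure only the spread between these libraries, which may be technical.

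Cells build fatty acids in the cytosol: ATP citrate lyase makes acetyl-CoA, acetyl-CoA carboxylase turns it into malonyl-CoA, and fatty acid synthase joins the units into palmitate. Elongases and desaturases then lengthen the chain and add double bonds, and acyl-CoA ligases activate the acid for phospholipids, for storage as triglyceride in lipid droplets, or for oxidation in mitochondria. SREBP-1, the product of Srebf1, is a membrane-bound transcription factor that is activated by proteolysis and switches on many of the genes of synthesis and desaturation.

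The libraries held 70555655 to 76923854 counts, and 17931 genes passed the filter on low counts. The Tada2b transcript stood at 25.2 to 28.0 CPM (the gene's counts relative to the TMM-scaled library total) in GFPsg, 32.3 to 33.3 with guide 1 and 25.9 to 29.0 with guide 2, so its level does not check the knockout labels. The 7 melanocyte markers summed to 20322 to 21118 CPM in GFPsg, 4973 to 5210 with guide 1 and 7032 to 7274 with guide 2, and their part in the values below was not tested. The 8 adipocyte markers, Adipoq and Plin1 among them, each averaged under 1 CPM in every group, with sums of 0.225 to 0.511 CPM per library. Of the 7 macrophage markers, Ptprc and Marco were at 0 in all 9 libraries and the list, nearly all Cd68 and Lyz2, summed to 2.59 to 2.98 CPM in GFPsg, 6.31 to 6.59 with guide 1 and 5.497 to 5.85 with guide 2. The 6 fibroblast markers, mostly Pdgfrb and Pdgfra, summed to 4.87 to 7.20, 13.2 to 14.2 and 12.5 to 14.9 CPM in the same order, and the endothelial, epithelial and hepatocyte lists to at most 1.57 CPM in any library. In bulk RNA, fewer cells of a type and less RNA per cell cannot be told apart.

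Most of the set moved, and the larger share fell. Against GFPsg, with both guides averaged, 21 of the 38 tested genes were lower, 12 were higher and 5 did not pass the test (edgeR quasi-likelihood test, Benjamini-Hochberg adjusted p under 0.05 over all genes tested). Among all genes tested, 51.0% were called, 26.3% lower and 24.7% higher, so the share lower in the set, 55.3%, is to be read against 26.3%. The counts by role below rest on few genes and are to be read against the same shares. The set is well expressed, with a median of 44.3 CPM in GFPsg against 10.8 CPM for all genes tested, and well expressed genes are called more often. Among genes with at least 10 CPM in GFPsg 63.9% were called, and of the 33 genes of the set at that level 87.9% were, 19 lower and 10 higher. The lower and higher shares of all genes at that level were not computed, so the direction has no share matched for level beside it. The median log2 change was −0.21 in the set and −0.019 over all genes tested. Scaling by library size alone gave 19 lower and 12 higher in the set, while over all genes it moved the higher share of the calls from 48.4% to 63.3%.

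Separation between libraries followed the same split. For 20 of the 38 genes all 6 Tada2b libraries lay below all 3 GFPsg libraries, which 22.2% of all genes did. For 8 genes all 6 lay above, which 21.8% of all genes did, and for the other 10 the groups overlapped. Among called genes with a log2 change of at least 0.5 in size, 10 were lower and 3 were higher, where the shares over all genes were 9.92% and 11.2%.

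**Figure D1:**
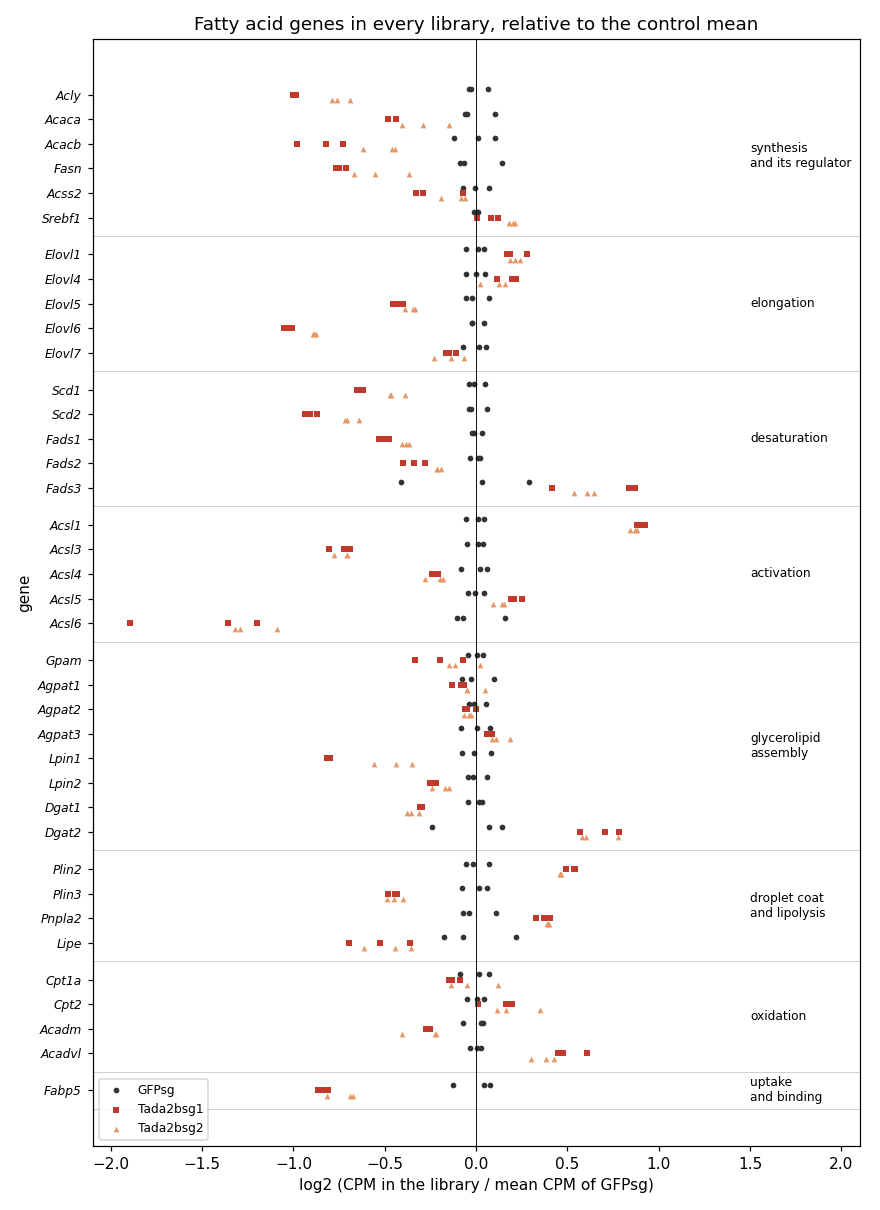
Log2 of each library's CPM over the GFPsg mean (x axis) for the 38 tested genes (y axis, grouped by role), with 1 point per library and 1 marker per group. Points of both guides lie left of the controls for most genes of synthesis and desaturation, and right of them for Acsl1, Plin2 and Dgat2.

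All 6 genes of fatty acid synthesis and its regulator were called, 5 lower and Srebf1 higher. Acly encodes ATP citrate lyase, the source of cytosolic acetyl-CoA (chr11:100476353-100528000, minus strand, mm10). It stood at 509, 478 and 474 CPM in GFPsg, 246, 245 and 243 CPM with guide 1 and 302, 281 and 288 CPM with guide 2. The groups did not overlap, guide 1 was the lowest of the 3, and the level fell by 45.3%, a log2 change of −0.87 ± 0.034 (adjusted p = 7.27e-13). Here and below ± in a log2 change is the standard error of the fit. Fasn encodes fatty acid synthase (chr11:120805846-120824547, minus strand, mm10) and stood at 657, 568 and 561 CPM in GFPsg, 364, 350.5 and 353 CPM with guide 1 and 462, 405 and 375 CPM with guide 2. Every Tada2b library was below every GFPsg library, and the log2 change was −0.63 ± 0.057 (adjusted p = 5.33e-08).

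The acetyl-CoA carboxylases, which make malonyl-CoA, also fell. Acaca, the cytosolic form, stood at 191, 172 and 171 CPM in GFPsg, 131, 128 and 127 CPM with guide 1 and 160.4, 146 and 134 CPM with guide 2. Its log2 change was −0.37 ± 0.049 (adjusted p = 5.78e-06), and the highest guide 2 library came close to the lowest GFPsg library without reaching it. Acacb, the form at the mitochondrial surface, was low at 5.53, 5.19 and 4.73 CPM in GFPsg, 2.91, 3.10 and 2.60 CPM with guide 1 and 3.79, 3.74 and 3.35 CPM with guide 2. All 6 Tada2b libraries were below the controls, with a log2 change of −0.67 ± 0.089 (adjusted p = 6.52e-06). Acss2, which makes acetyl-CoA from acetate, gave −0.17 ± 0.064 (adjusted p = 0.0377). That call was lost without GFPsg replicate 2 or 3 (adjusted p = 0.211 and 0.109), without Tada2bsg1 replicate 1 or 3 (0.106 and 0.101) and without Tada2bsg2 replicate 1, 2 or 3 (0.0936, 0.0534 and 0.0584), and with library size alone (0.287).

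Srebf1 moved the other way, and only slightly. It stood at 48.1, 47.3 and 47.9 CPM in GFPsg, 51.9, 50.6 and 47.9 CPM with guide 1 and 54.9, 54 and 55.3 CPM with guide 2. The guide 2 libraries were all above the controls, while the third guide 1 library lay within the control range. The log2 change was 0.13 ± 0.036 (adjusted p = 0.00505) over both guides, 0.071 ± 0.042 with guide 1, which did not pass the test (adjusted p = 0.18), and 0.20 ± 0.041 with guide 2 (adjusted p = 0.000874). The transcript level gives no measure of the processed, active protein.

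All 5 elongases were called, 3 lower and 2 higher. Elovl6, which lengthens palmitate to stearate (chr3:129532355-129638495, plus strand, mm10), stood at 119.7, 119.7 and 125 CPM in GFPsg, 59.1, 60.5 and 58.5 CPM with guide 1 and 65.8, 66.2 and 65.5 CPM with guide 2. The GFPsg libraries were far above all others, and the level fell by 48.5%, a log2 change of −0.96 ± 0.031 (adjusted p = 6e-14). Elovl5, an elongase of polyunsaturated chains, fell with a log2 change of −0.39 ± 0.034 (adjusted p = 4.25e-08), from 140.2 ± 6.29 CPM in GFPsg to 104 ± 2.01 with guide 1 and 109 ± 2.08 with guide 2 (mean ± SD, n = 3). Elovl1, an elongase of saturated very long chains, rose by 0.21 ± 0.04 on the log2 scale (adjusted p = 0.000292). Elovl7 gave −0.14 ± 0.044 (adjusted p = 0.0128) and Elovl4, an elongase of very long chains, 0.14 ± 0.046 (adjusted p = 0.0182). Both of those calls rest on single libraries: Elovl7 missed the threshold without GFPsg replicate 2 or 3 (adjusted p = 0.114 and 0.0739) and with library size alone (0.276), and Elovl4 without GFPsg replicate 1 (0.0864).

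The desaturases held the most abundant transcript of the set. Scd2, a stearoyl-CoA desaturase that makes oleate from stearate (chr19:44293674-44306864, plus strand, mm10), stood at 1791, 1688 and 1676 CPM in GFPsg, 899, 940.5 and 916 CPM with guide 1 and 1104, 1055 and 1045 CPM with guide 2. Every GFPsg library was far above every Tada2b library, and the log2 change was −0.80 ± 0.034 (adjusted p = 2.07e-12), a fall of 42.4%. Scd1, a close paralogue that catalyses the same reaction (chr19:44394455-44407879, minus strand, mm10), stood at 316, 303 and 298 CPM in GFPsg, 198, 199.6 and 195 CPM with guide 1 and 234, 221 and 221 CPM with guide 2. It fell by 31.1%, with a log2 change of −0.54 ± 0.033 (adjusted p = 3.61e-10). The share of Scd2 in the reads of the pair was 84.8% to 85.0% in the GFPsg libraries, 81.9% to 82.5% with guide 1 and 82.5% to 82.7% with guide 2. Scd1 and Scd2 are similar in sequence, and how reads that match both were counted is not given in the sources used here, so the split between them is uncertain.

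Fads1 and Fads2, the delta-5 and delta-6 desaturases of polyunsaturated fatty acids, fell by 26.6% and 17.2%. Fads1 went from 127 ± 2.46 CPM in GFPsg to 89.3 ± 1.77 with guide 1 and 97 ± 1.22 with guide 2 (mean ± SD, n = 3), with a log2 change of −0.45 ± 0.031 (adjusted p = 1.85e-09). Fads2 went from 120.2 ± 2.50 CPM in GFPsg to 95.1 ± 3.89 with guide 1 and 104 ± 0.933 with guide 2, with a log2 change of −0.27 ± 0.034 (adjusted p = 2.86e-06). Fads3, the third gene of that cluster, was low, with 26 to 75 counts per library. It stood at 0.635, 0.390 and 0.532 CPM in GFPsg, 0.950, 0.927 and 0.693 CPM with guide 1 and 0.789, 0.813 and 0.753 CPM with guide 2. Its log2 change of 0.65 ± 0.21 (adjusted p = 0.0157) was lost without GFPsg replicate 2, the lowest library (0.50, adjusted p = 0.084).

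The acyl-CoA ligases, which couple fatty acids to coenzyme A, split by gene and carried both the largest rise and the largest fall of the set. Acsl1 rose in every Tada2b library, by 84.6% (chr8:46471037-46536051, plus strand, mm10). It stood at 29.3, 28.1 and 29.9 CPM in GFPsg, 54.9, 55.2 and 53.6 CPM with guide 1 and 53.1, 52.1 and 53.5 CPM with guide 2. The lowest Tada2b library was far above the highest control, and the log2 change was 0.88 ± 0.038 (adjusted p = 2.24e-12). Acsl6, a low transcript (chr11:54303798-54364756, plus strand, mm10), stood at 4.19, 5.04 and 4.29 CPM in GFPsg, 1.96, 1.21 and 1.76 CPM with guide 1 and 2.12, 1.81 and 1.84 CPM with guide 2. It fell by 60.5%, a log2 change of −1.34 ± 0.13 (adjusted p = 1.08e-07), and no Tada2b library reached the control range.

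Acsl3, the ligase found on the endoplasmic reticulum and on nascent droplets, fell with both guides. It stood at 175, 185 and 181 CPM in GFPsg, 103, 112 and 109 CPM with guide 1 and 105, 110.4 and 111 CPM with guide 2. Both guides lay below the controls and overlapped each other. The log2 change was −0.73 ± 0.035 (adjusted p = 1.12e-11) over both guides, −0.74 ± 0.042 with guide 1 and −0.73 ± 0.042 with guide 2. Acsl3 shares 5.6% of its exon length with Utp14b on the same strand. How reads in the shared part were counted is not given in the sources used here. Acsl4, which prefers arachidonate, fell by 14.2% (log2 change −0.22 ± 0.037, adjusted p = 8.31e-05). Acsl5 rose by 12.8% (log2 change 0.17 ± 0.034, adjusted p = 0.000336), and 8.31% of its exon length is shared with Zdhhc6 on the opposite strand.

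The promoters of the ligases with the largest rise and the largest fall are shown because they bracket the set, and because a promoter of Acsl1 was the only one among 44 promoters of 33 genes of the set to match the core letters of the sterol regulatory element, TCACNCCAC. No promoter was at hand for Dgat1, Dgat2, Fabp5, Fads1, Lpl, Scd1 and Scd2, so these genes were not searched. RefSeq holds 2 promoters of Acsl1 and 3 of Acsl6. Each line gives the 250 bases before an annotated start in RefSeq (GRCm38.p6), on the plus strand, 5′ to 3′. Capitals mark that element in Acsl1 promoter 2 (chr8:46490716-46490965), where it is read on the minus strand. They mark GC boxes, GGGCGG on either strand, in Acsl1 promoter 1 (chr8:46470787-46471036), Acsl6 promoter 2 (chr11:54303954-54304203) and Acsl6 promoter 3 (chr11:54314653-54314902), and the AP-1 letters TGANTCA in Acsl6 promoter 1 (chr11:54303574-54303823). Each line marks 1 motif, so other matches, such as the GC box of Acsl6 promoter 1 that begins 95 bases before the start, stay in lower case.
Acsl1 promoter 1: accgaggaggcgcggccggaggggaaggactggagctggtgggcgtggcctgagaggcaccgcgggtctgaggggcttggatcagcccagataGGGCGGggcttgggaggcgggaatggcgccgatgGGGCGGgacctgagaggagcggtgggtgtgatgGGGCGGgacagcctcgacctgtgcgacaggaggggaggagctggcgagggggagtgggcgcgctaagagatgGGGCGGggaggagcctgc
Acsl1 promoter 2: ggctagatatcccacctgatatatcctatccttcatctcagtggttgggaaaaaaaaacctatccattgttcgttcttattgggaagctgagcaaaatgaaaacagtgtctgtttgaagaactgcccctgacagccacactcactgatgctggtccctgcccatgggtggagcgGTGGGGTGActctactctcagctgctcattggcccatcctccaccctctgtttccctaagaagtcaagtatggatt
Acsl6 promoter 1: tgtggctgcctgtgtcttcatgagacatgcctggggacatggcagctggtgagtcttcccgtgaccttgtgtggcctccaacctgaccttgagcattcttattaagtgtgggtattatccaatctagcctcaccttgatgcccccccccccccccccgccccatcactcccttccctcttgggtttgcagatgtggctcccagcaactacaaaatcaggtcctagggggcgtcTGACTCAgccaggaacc
Acsl6 promoter 2: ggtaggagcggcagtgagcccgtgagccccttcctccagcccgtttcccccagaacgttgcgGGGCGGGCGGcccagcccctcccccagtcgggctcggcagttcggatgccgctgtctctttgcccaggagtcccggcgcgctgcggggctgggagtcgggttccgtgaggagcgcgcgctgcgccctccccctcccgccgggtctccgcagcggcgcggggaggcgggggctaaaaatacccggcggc
Acsl6 promoter 3: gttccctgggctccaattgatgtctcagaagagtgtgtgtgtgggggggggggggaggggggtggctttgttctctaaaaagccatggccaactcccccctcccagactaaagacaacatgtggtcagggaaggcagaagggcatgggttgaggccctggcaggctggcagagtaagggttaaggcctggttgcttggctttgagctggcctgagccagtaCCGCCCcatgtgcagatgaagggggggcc

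The sterol element letters of Acsl1 promoter 2 begin 76 bases before the start, and the AP-1 letters of Acsl6 promoter 1 begin 17 bases before it. In Acsl1 promoter 1 there were 4 GC boxes in the 250 bases shown. Over the windows searched, 250 bases before to 50 after a start and both strands, the sterol element letters were in 2.27% of the promoters of the set and in 1.22% of the 14057 promoters of genes tested. CCAAT, the NF-Y box, was in 22 of the 44 against 37.7%, the GC box in 65.9% against 59.7%, and CACGTG, an E-box, in 11.4% against 9.68%. The AP-1 letters were in 4.55% against 5.47% and the TEAD letters GGAATG in 9.09% against 12.5%. Parts of these words can overlap in GC-rich sequence, gene counts do not show which start was used, and a match is a description of letters only.

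Glycerolipid assembly was mixed, with 3 genes lower, 2 higher and 3 not called of 8. Lpin1, a phosphatidate phosphatase that makes diacylglycerol (chr12:16535669-16610966, minus strand, mm10), stood at 29.9, 26.8 and 28.04 CPM in GFPsg, 16.3, 16.03 and 16.2 CPM with guide 1 and 22.1, 19.2 and 20.8 CPM with guide 2. The groups did not overlap, guide 1 was lower than guide 2, and the log2 change was −0.63 ± 0.051 (adjusted p = 1.52e-08). Dgat2, an acyltransferase of the last step to triglyceride, was low at 1.47, 1.83 and 1.92 CPM in GFPsg, 2.99, 2.58 and 2.84 CPM with guide 1 and 2.60, 2.98 and 2.64 CPM with guide 2. All 6 Tada2b libraries were above the controls, with a log2 change of 0.67 ± 0.12 (adjusted p = 0.00014). Dgat1, which carries out the same reaction, fell from 19.1 ± 0.529 CPM in GFPsg to 15.5 ± 0.0465 with guide 1 and 15 ± 0.356 with guide 2 (mean ± SD, n = 3), a log2 change of −0.32 ± 0.046 (adjusted p = 1.32e-05).

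The other genes of assembly moved little. Lpin2, a second phosphatidate phosphatase, fell by 13.5% (log2 change −0.21 ± 0.039, adjusted p = 0.000247). Agpat3, a lysophosphatidate acyltransferase, gave 0.10 ± 0.038 (adjusted p = 0.0357). Leaving out GFPsg replicate 2 or 3 ended that call (adjusted p = 0.0503 and 0.17), as did no filter on low counts (0.0512). Gpam, the mitochondrial glycerol-3-phosphate acyltransferase, did not pass the test at −0.14 ± 0.058 (adjusted p = 0.062). Gpam passed it without Tada2bsg1 replicate 1 (−0.16, adjusted p = 0.0264) and without Tada2bsg2 replicate 1 (−0.15, adjusted p = 0.0334). The call was also made with the replicate block (adjusted p = 0.0227) and with no filter on low counts (0.0489). Agpat1 and Agpat2 did not pass it either, at −0.054 ± 0.042 (adjusted p = 0.309) and −0.041 ± 0.042 (adjusted p = 0.456), and their sign turned with library size alone.

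At the lipid droplet, 2 genes were higher, 1 was lower and 1 was not called. Plin2, a coat protein of droplets (chr4:86648386-86670060, minus strand, mm10), stood at 91.4, 97.2 and 88.9 CPM in GFPsg, 135, 134 and 129.9 CPM with guide 1 and 128, 127 and 127 CPM with guide 2. Every Tada2b library was above every control, and the log2 change was 0.49 ± 0.035 (adjusted p = 2.73e-09), a rise of 40.7%. Plin3, another coat protein that also sits in the cytosol, fell from 181 ± 8.61 CPM in GFPsg to 132 ± 2.50 with guide 1 and 133 ± 4.00 with guide 2 (mean ± SD, n = 3), a log2 change of −0.45 ± 0.036 (adjusted p = 1.15e-08). Pnpla2, which encodes the triglyceride lipase ATGL, rose from 19.6 ± 1.33 CPM in GFPsg to 25.3 ± 0.670 with guide 1 and 25.7 ± 0.0715 with guide 2, a log2 change of 0.38 ± 0.048 (adjusted p = 3.63e-06). Lipe, hormone-sensitive lipase, averaged under 1 CPM in every group and did not pass the test (log2 change −0.49 ± 0.23, adjusted p = 0.0839).

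Oxidation did not move as one. Cpt1a, which commits fatty acids to mitochondrial import, stood at 20.2, 18.1 and 19.5 CPM in GFPsg, 18.1, 17.4 and 17.6 CPM with guide 1 and 20.97, 17.5 and 18.6 CPM with guide 2. Guide 2 overlapped both other groups. The highest guide 1 library, at 18.104 CPM, lay just below the lowest GFPsg library, at 18.125 CPM. The log2 change of −0.071 ± 0.058 over both guides (adjusted p = 0.332) did not pass the test and turned sign with library size alone. With guide 1 alone the change, −0.12 ± 0.067, did not pass it either (adjusted p = 0.145). Acadm, the medium-chain acyl-CoA dehydrogenase, fell by 17.2% (log2 change −0.27 ± 0.042, adjusted p = 3.65e-05). Acadvl, the very-long-chain dehydrogenase, rose by 35.8% (log2 change 0.44 ± 0.051, adjusted p = 1.44e-06). Acadvl shares 42.9% of its exon length with Dvl2 on the opposite strand, which stood at 27.6 to 29.9 CPM over the 9 libraries and whose change did not pass the test (adjusted p = 0.547). The library kit keeps strand, but the strand setting of the counting is not given in the sources used here. Cpt2, the inner membrane partner of Cpt1a, gave 0.17 ± 0.06 (adjusted p = 0.0272), which was lost without GFPsg replicate 3 (adjusted p = 0.0929) and without Tada2bsg1 replicate 2 (0.0627).

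Of the genes of uptake and binding, 1 was expressed. Fabp5, a cytosolic fatty acid binding protein (chr3:10012548-10016607, plus strand, mm10), stood at 291, 334 and 327 CPM in GFPsg, 174, 177 and 181 CPM with guide 1 and 180.0, 197 and 199 CPM with guide 2. All 6 Tada2b libraries were below the controls, and the level fell by 41.8%, a log2 change of −0.78 ± 0.044 (adjusted p = 9.65e-11). Cd36, a fatty acid translocase at the cell surface, lay between 0 and 0.075 CPM, and Lpl, the secreted lipoprotein lipase, between 0 and 0.014 CPM. A count of 0 allows up to 3 counts, or 0.038 to 0.045 CPM in these libraries, for counting error only.

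Ranked by CPM per kilobase of exon over all 9 libraries, the genes at the top of the set mostly fell: 9 of the 10 highest were lower and 1, Plin2, was higher. Of the other 28 tested genes, 12 were lower, 11 higher and 5 not called. Over all genes tested 26.3% were lower, and no share was computed for all genes at the level of these 10. Well expressed genes are called more often, and the part of level in this split was not tested. In GFPsg, Scd2 led with 315 ± 11.6 CPM per kb (mean ± SD, n = 3), followed by Acly at 92.3 ± 3.68 and Fabp5 at 88.9 ± 6.47, which did not differ from each other beyond their spread. Scd1 came next at 62.6 ± 1.91, then Fasn at 54.4 ± 4.90 and Plin3 at 47.8 ± 2.27, whose ranges are close. With the longest transcript in place of the union of exons, 9 of the 10 highest were the same genes.

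**Figure D2:**
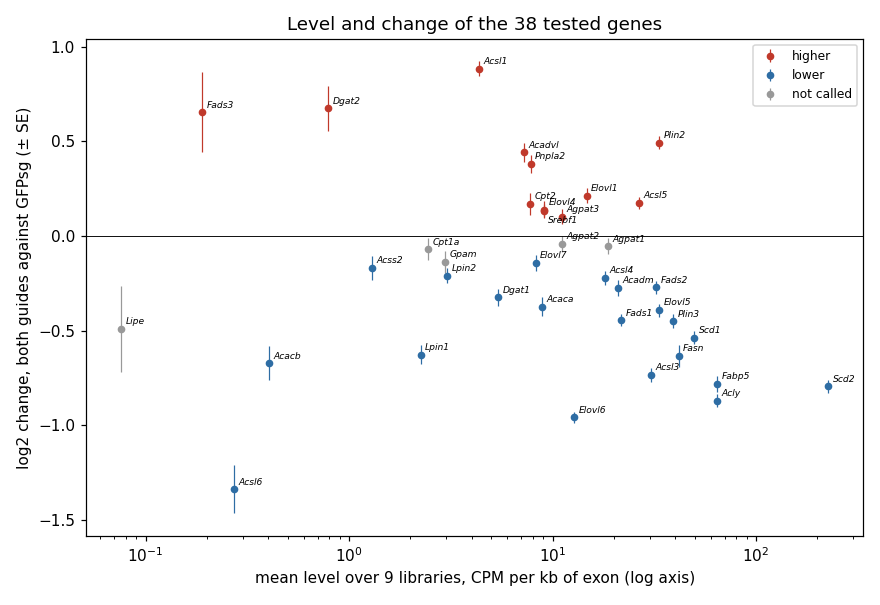
Mean level over the 9 libraries (x axis, CPM per kb of exon, log scale) against the log2 change of both guides from GFPsg (y axis) for the 38 tested genes, with error bars of 1 SE and colour by call. Scd2, Acly and Fabp5, the 3 highest, all lie below 0, while Acsl1 and Dgat2 rise from lower levels.

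Each guide was also set against GFPsg on its own. With guide 1, 22 of the 38 genes were lower and 9 higher, where 24.5% and 23.8% of all genes were. With guide 2, 20 were lower and 10 higher, where 23.0% and 22.1% of all genes were. The median log2 change of the set was −0.23 with guide 1 and −0.20 with guide 2. These contrasts share the GFPsg libraries, so their likeness is not a result. Side by side, the log2 change of Acly was −0.99 ± 0.041 with guide 1 and −0.75 ± 0.041 with guide 2, that of Fasn −0.74 ± 0.067 with guide 1 and −0.52 ± 0.067 with guide 2 and that of Acsl1 0.91 ± 0.042 with guide 1 and 0.86 ± 0.042 with guide 2.

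Set directly against each other, where GFPsg enters only the shared estimate of the spread, the guides differed for 5 genes of the set, all higher with guide 2. Over all genes 3.68% were called in this comparison, 2.66% higher and 1.02% lower, and 13.2% of the set was. The set is better expressed than all genes tested, and no share was computed here for genes at its level. The count of genes higher with guide 2 was 9 by DESeq2, 12 with the replicate number as a block, and 3 to 7 with 1 library left out, with the 3 found without Tada2bsg1 replicate 3. Lpin1 differed by 0.36 ± 0.061 on the log2 scale (adjusted p = 0.00231), Acly by 0.25 ± 0.04 (adjusted p = 0.00157) and Scd2 by 0.22 ± 0.04 (adjusted p = 0.00413). Those 3 were called in all 17 alternative analyses. Scd1 differed by 0.19 ± 0.039 (adjusted p = 0.00916) and missed the threshold in 1 of them, without Tada2bsg1 replicate 3 (adjusted p = 0.0731). Elovl6 differed by 0.15 ± 0.038 (adjusted p = 0.0346) and was called in 10 of the 17, not with no filter on low counts and not when any 1 of the 6 Tada2b libraries was left out (adjusted p up to 0.195).

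In these 5 genes guide 2 lay between GFPsg and guide 1. Of the 22 genes lower with guide 1, 19 had a higher mean CPM with guide 2 than with guide 1, a count that is tilted because guide 1 chose those genes. No gene of the set was called lower with guide 2 than with guide 1 by edgeR, DESeq2 or limma-voom, while 2 had an unadjusted p under 0.05 by each of the 3. Acaca and Fasn, 0.19 ± 0.057 and 0.22 ± 0.067 higher with guide 2 on the log2 scale, did not pass the test (adjusted p = 0.0878 and 0.0925). Each of them passed it in 5 of the 17 alternatives: DESeq2, the replicate block, no filter on low counts, without GFPsg replicate 1 and without Tada2bsg2 replicate 3. Acsl3 did not pass it at 0.0098 ± 0.042 (adjusted p = 0.934). The melanocyte markers also summed higher with guide 2 than with guide 1, and their part in this difference was not tested.

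**Figure D3:**
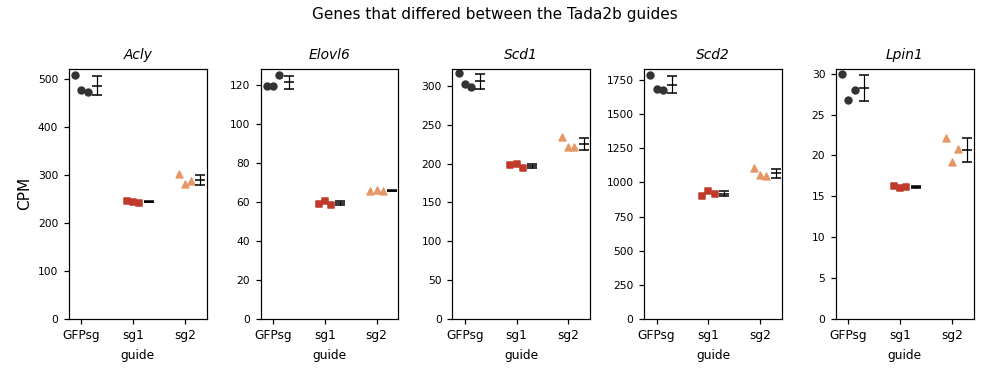
CPM in each library (y axis, from 0) for the 5 genes called between the guides, by group (x axis, sg1 and sg2 for guides 1 and 2), with bars at the mean ± SD of 3 libraries. In every panel GFPsg is highest, guide 1 lowest and guide 2 between them.

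Of 109 further genes of fatty acid metabolism listed by role, 94 were tested, and 46 were lower, 19 higher and 29 not called. The share called was 69.1%, beside 51.0% of all genes and 63.9% of genes with at least 10 CPM in GFPsg. The share lower was 48.9% and the share higher 20.2%, beside 26.3% and 24.7% of all genes. The further genes were not matched for level. Their median log2 change was −0.15, beside −0.019 for all genes tested. With library size alone 38 were lower and 29 higher. The counts by role that follow rest on few genes and are to be read against 26.3% lower and 24.7% higher among all genes. Among regulators, 10 of 20 tested genes were lower and 3 higher. Insig1, which retains the SREBP escort protein in the endoplasmic reticulum and is itself an SREBP target, fell by 64.6%, with 469.9 ± 12.6 CPM in GFPsg, 151 ± 1.98 with guide 1 and 183 ± 6.05 with guide 2 (mean ± SD, n = 3; log2 change −1.50 ± 0.032, adjusted p = 2.72e-16). Mid1ip1, an activator of acetyl-CoA carboxylase, and Prkaa1, a catalytic subunit of AMP-activated kinase, gave log2 changes of −0.60 ± 0.04 (adjusted p = 1.23e-09) and −0.58 ± 0.032 (adjusted p = 1.1e-10). The direction of Insig1 was opposite to that of Srebf1. It was the same as that of Srebf2, the other SREBP gene, which gave −0.37 ± 0.037 (adjusted p = 2.02e-07). Scap, the gene of the escort protein, was also lower at −0.17 ± 0.047 (adjusted p = 0.0053), with overlap between the groups. The genes of the proteases that cut SREBP went both ways. Mbtps1 was higher at 0.15 ± 0.038 (adjusted p = 0.00341), with all Tada2b libraries above the controls. Mbtps2 was lower at −0.24 ± 0.037 (adjusted p = 3.39e-05), and so was Insig2 at −0.56 ± 0.038 (adjusted p = 1.37e-09). What links these changes was not tested.

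Around synthesis, 3 of 7 tested genes were lower and 1 higher. Slc25a1, which exports the citrate that Acly splits, fell by 30.5% (log2 change −0.53 ± 0.042, adjusted p = 1.11e-08). Acss1, the mitochondrial acetyl-CoA synthetase, and Mlycd, which breaks down malonyl-CoA, gave −0.93 ± 0.13 (adjusted p = 8.59e-06) and −0.48 ± 0.068 (adjusted p = 1.2e-05). Among genes of elongation 5 of 7 were lower and 1 was higher. Hsd17b12, the ketoreductase of the elongation cycle, gave −0.59 ± 0.033 (adjusted p = 9.05e-11) and Hacd2, a dehydratase of it, −0.75 ± 0.036 (adjusted p = 1.11e-11). Hacd4, of the same dehydratase family, rose from 7.95 ± 0.511 CPM in GFPsg to 33.2 ± 0.501 with guide 1 and 27.7 ± 0.707 with guide 2 (log2 change 1.93 ± 0.052, adjusted p = 5.53e-15).

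The partners of the desaturases moved apart. Cyb5a, the cytochrome b5 that passes electrons to the stearoyl-CoA desaturases, fell by 67.2%, from 412 ± 16.2 CPM in GFPsg to 126 ± 6.78 with guide 1 and 145 ± 5.69 with guide 2 (log2 change −1.61 ± 0.039, adjusted p = 1.27e-15). Cyb5r3, a reductase that feeds cytochrome b5, rose by 72.1% (log2 change 0.78 ± 0.039, adjusted p = 2.11e-11). Degs1, the dihydroceramide desaturase, gave 0.21 ± 0.032 (adjusted p = 3.26e-05). In all, 3 of the 6 genes of this list were higher and 2 lower.

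Of the further genes, Slc27a1 and Gpat3, of activation and assembly, rose most. Slc27a1, a fatty acid transport protein with acyl-CoA ligase activity, went from 3.45 ± 0.147 CPM in GFPsg to 26.4 ± 0.946 with guide 1 and 24.4 ± 1.39 with guide 2 (log2 change 2.88 ± 0.064, adjusted p = 4.52e-16). Gpat3, a glycerol-3-phosphate acyltransferase of the endoplasmic reticulum, went from 0.846 ± 0.0863 CPM in GFPsg to 5.16 ± 0.149 with guide 1 and 3.83 ± 0.511 with guide 2 (log2 change 2.39 ± 0.12, adjusted p = 3.7e-11). Acsbg1, another acyl-CoA ligase, gave 1.41 ± 0.16 (adjusted p = 1.26e-06), Mogat2, a monoacylglycerol acyltransferase, 1.04 ± 0.12 (adjusted p = 1.17e-06), and Acot1, an acyl-CoA thioesterase, −0.67 ± 0.072 (adjusted p = 6.15e-07). Agpat5, a lysophosphatidate acyltransferase, gave −0.48 ± 0.035 (adjusted p = 3.4e-09). Of the 10 tested genes of activation and hydrolysis 4 were higher and 5 lower, and of the 8 of assembly 4 were higher and 2 lower.

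At the droplet, 3 of 8 tested genes were lower and 1 higher. Mgll, the monoacylglycerol lipase, went from 45.8 ± 0.898 CPM in GFPsg to 3.08 ± 0.148 with guide 1 and 5.91 ± 0.144 with guide 2 (log2 change −3.42 ± 0.047, adjusted p = 2.79e-18). Abhd5, the co-activator of ATGL, gave −0.43 ± 0.039 (adjusted p = 6.37e-08) and Fitm2, which takes part in droplet budding, 0.62 ± 0.057 (adjusted p = 7.15e-08). In oxidation, 11 of 20 tested genes were lower and 1 was higher. Ehhadh, a bifunctional enzyme of peroxisomal oxidation, gave −0.90 ± 0.047 (adjusted p = 4.06e-11), Hadh, the short-chain 3-hydroxyacyl-CoA dehydrogenase, −0.39 ± 0.04 (adjusted p = 3.19e-07), and Acadl, the long-chain dehydrogenase, −0.30 ± 0.035 (adjusted p = 1.38e-06). In uptake and binding, 5 of 8 were lower and 1 was higher. Fabp7, a binding protein of brain and melanoma cells, gave −2.36 ± 0.081 (adjusted p = 1.25e-13), Lipa, the lysosomal acid lipase, −0.66 ± 0.035 (adjusted p = 5e-11), and Lmf1, a lipase maturation factor, −0.39 ± 0.05 (adjusted p = 5.68e-06).

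**Figure D4:**
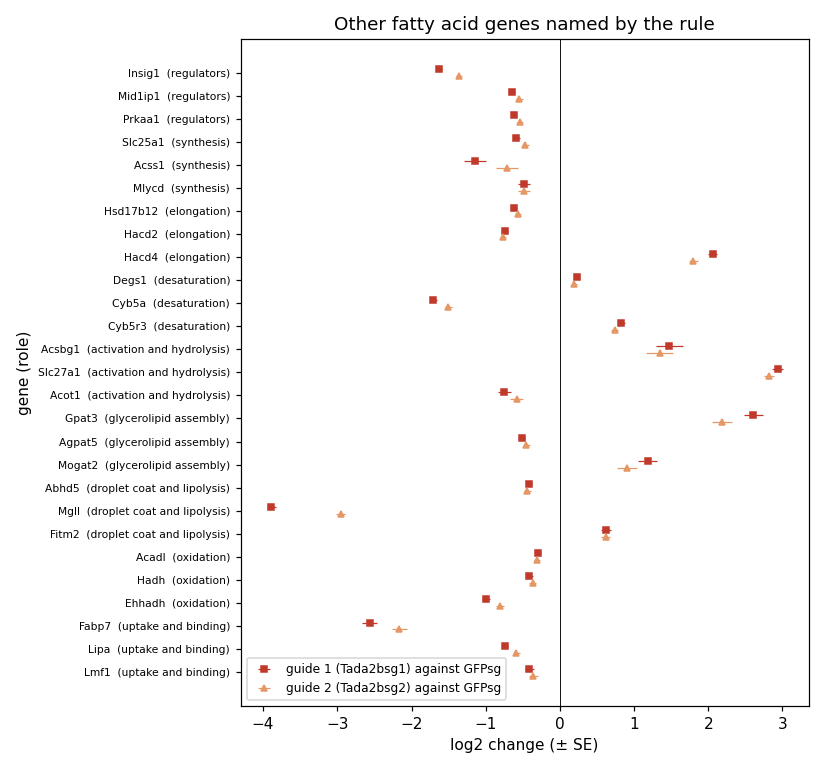
Log2 change from GFPsg with guide 1 and with guide 2 (x axis, points with bars of 1 SE) for the 27 further genes named by lowest p, with their role (y axis), where both guides share the GFPsg libraries. Slc27a1, Gpat3 and Hacd4 lie farthest to the right, and Mgll, Fabp7 and Cyb5a farthest to the left.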

How the data were processed

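Total RNA from 9 libraries of B16F10 cells was made into stranded mRNA libraries, per the labels. The authors deposited 1 table of whole-number read counts per gene. The submitters' processing notes name bcl2fastq, HISAT2, HTSeq and mm10; versions, the annotation release and the strand setting of the counting are not given in the sources used here. The files hold 70555655 to 76923854 counts per library, and no replicates were identical or alike within sampling noise (chi-square per degree of freedom 7.75 to 25.2 between replicates).

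Tests used edgeR 4.0.16 (R 4.3.3). Genes were kept by filterByExpr with a count minimum of 10 (17931 genes, 99.97% of counts), scaled by TMM, fitted in 1 model of 3 groups and tested by quasi-likelihood F tests, with Benjamini-Hochberg adjustment over all genes tested and calls at an adjusted p under 0.05. The contrast of both guides is the mean of the guide groups minus GFPsg. CPM are values computed here, over library sizes scaled by TMM, log2 changes are those of the fit, and a standard error is the size of the log2 change over the square root of F. CPM per kb uses the union of exons in GENCODE M21 (mm10), to which 54723 of the 54752 IDs matched. The fit was tested on simulated counts, with changes set in genes drawn from all levels. It recovered 60% of genes changed 1.25-fold, 64% at 1.5-fold, 78% at 2-fold and 92% at 4-fold. There were 7 false calls among 17404 unchanged genes. A gene that was not called may therefore still have changed by a small amount.

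The 40 genes and the lists of further genes and markers were chosen with earlier results of these data known. Values in every library are printed for called genes with a log2 change of at least 0.5 in size. They are also printed for 6 genes fixed by name (Srebf1, Fasn, Scd1, Acaca, Cpt1a and Plin2). Of the further genes, up to 3 per role with the lowest p and a mean of at least 1 CPM are named. Srebf2, Scap, Insig2, Mbtps1 and Mbtps2 are given in addition, beside Insig1. RefSeq promoters (GRCm38.p6) were matched by symbol for 33 of the 40 genes. Alternatives were DESeq2 1.42.0, voom in limma 3.58.1, other scalings and filters, a replicate block, only the groups compared, each library left out, a stricter threshold, and longest transcripts as length.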

Additional observations from a re-analysis of the deposited data

Results flagged for a closer look

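In the direct test of guide 2 against guide 1, 5 genes differed between the guides (edgeR quasi-likelihood test, adjusted over all genes tested). The log2 differences were 0.36 for Lpin1, 0.25 for Acly, 0.22 for Scd2, 0.19 for Scd1 and 0.15 for Elovl6. All 5 were lower than GFPsg with both guides and higher with guide 2 than with guide 1, and the cause was not tested.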

How the results depend on the processing

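Of 606 log2 changes of the tested genes under other scalings, filters and tools, the replicate block and with 1 library left out, 579 kept their direction and their side of the threshold, 20 lost a call (Acss2, Agpat3, Cpt2, Elovl4, Elovl7 and Fads3), 4 gained one (Gpam) and 3 changed sign. The 3 were uncalled genes under library size alone: Agpat1 at 0.0296, Agpat2 at 0.043 and Cpt1a at 0.013. Acss2 also missed the threshold with RLE scaling and DESeq2 (adjusted p = 0.0532 and 0.0516). At an adjusted p under 0.01 those 6 genes with a lost call were again not called, which left 19 lower and 8 higher against GFPsg. Genes higher with guide 2 than with guide 1 numbered 5, and 9 by DESeq2 and 3 to 7 with 1 library left out. Further pathway genes called higher numbered 19, and 29 with library size alone. The causes were not tested. Counts of calls against GFPsg otherwise stayed within 1.5 times. The comparison that uses all 3 groups gives no separate value for only the groups compared.

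The replicate numbers were not used as a pairing in the main fit. Same-numbered libraries correlated at −0.012 to 0.1 in their deviations from the group means, and different-numbered ones at −0.088 to 0.041. The same-numbered values were mostly the higher ones, the ranges overlapped, and not every library correlated best with its own number. Whether the numbers mark a pairing was not tested. With the replicate block, 12 genes were higher with guide 2 than with guide 1, and 22 were lower and 12 higher in the contrast of both guides with GFPsg.

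Depth limits Fads3, Lipe, Cd36 and Lpl, all under 1 CPM on average in every group.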
